A study of Mus musculus with 18 samples.

Results

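Spermatocytes sorted from adult testes were compared with whole juvenile testes of the same 2 carrier genotypes, to find which transcripts were richer in the spermatocytes and which in the rest of the testis. Of the 18 arrays of the series, 12 enter the comparison: every carrier array of pre-mid-pachytene spermatocytes and every carrier array of testis at 15 days. Ttf+/+T43H and t12+/+T43 are the genotypes as the labels write them, both on the C57BL/10J background. Both carry a T43 translocation together with a variant of chromosome 17 in the t complex region, a kind of combination known from studies of male sterility. The sorted cells came from males of 2 months, 3 arrays per genotype, by flow cytometry of a suspension made from testis tubules. The testes came from males of 15 days with the tunica removed, 3 arrays per genotype, and their RNA was extracted with another kit of the same maker. Material, age, sorting and extraction therefore change together, and which of them goes with a difference cannot be told apart. Replicates are biological ones by the submitters' account. The remaining 6 arrays were kept out of the carrier comparison: C57BL/10J pre-mid-pachytene cells (2 arrays), C57BL/10J mid-late-pachytene cells (2 arrays) and C57BL/6J testes at 15 days (2 arrays), all of fertile or standard laboratory strains.

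As background, pachytene is the long stage of the first meiotic prophase in which paired homologous chromosomes are held by the synaptonemal complex and recombine. At this stage the X and Y are packed into a transcriptionally quiet body, and the cell begins to store transcripts that are translated only after meiosis. A juvenile testis at this age holds spermatogonia, Sertoli cells, peritubular muscle, Leydig cells, vessels, macrophages and the first spermatocytes, but no spermatids. In whole tissue, fewer cells of a type and less RNA per cell cannot be told apart.

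A gene was tested where at least 2 of the 12 arrays reached a log2 value of 4, and 10030 of 15780 named genes passed. A gene under 4 on every array of a material passed through the other material only, and could hardly be called higher in the first. Among the tested genes, 810 were under 4 on every sorted array and 920 on every testis. The comparison used 2 measures. The first was the difference of log2 levels, sorted minus testis, with genotype as a block, from limma; a gene was called beyond 2-fold where limma's treat test against a 2-fold change gave an adjusted p under 0.05. The second was the same fit on each gene's percentile rank within its array, which does not depend on the spread of values that an array gives. Values under about 4 carry little signal over background, so a difference that starts there is a distance from the floor of the background correction and not a ratio of RNA amounts.

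Beyond 2-fold, 2045 genes were higher in sorted spermatocytes (20.4%) and 2127 were higher in testes (21.2%), 41.6% in all. Without the demand for a 2-fold change, 4496 genes were higher in sorted cells (44.8%) and 3534 lower (35.2%), 80.1% in all (limma, adjusted p under 0.05). The ranges of the 6 sorted and 6 testis arrays did not overlap for 6269 genes (62.5%). The balance depended on scaling: the median change over all tested genes was 0.24 as deposited, 0.15 after quantile normalization and 0.84 after centring each array on its median. With that centring 3438 genes were higher and 1584 lower beyond 2-fold, so 68.5% of the calls were higher in sorted cells, against 49.0% as deposited.

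Ranks gave the same classes. Of the 2045 genes called for sorted cells, 2028 also had a higher percentile rank there at an adjusted p under 0.05, and of the 2127 called for testis, 2126 had a lower one. Over all tested genes the rank fit called 4271 genes higher (42.6%) and 3621 lower (36.1%), 78.7% in all. The control arrays, which share no array with the carriers, gave the same sides: 1955 of the 1983 sorted-class genes tested there were called higher in C57BL/10J pre-mid-pachytene cells than in C57BL/6J testes (98.6%), beside 47.3% of all genes tested there. For the testis class, 2058 of 2077 were called lower (99.1%), beside 39.3%, and 4 were called the other way. In the controls 86.6% of genes were called in 1 direction or the other. Within the controls strain, age, sorting and material change together. Their signal quality differed as well. The probe sets for the 3' and 5' ends of Gapdh differed by 2.86 and 2.93 log2 units in the C57BL/10J pre-mid cells. In the C57BL/6J testes they differed by -0.08 and -0.12. The part of labelling in the agreement between carriers and controls was not tested.

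**Figure D1:**
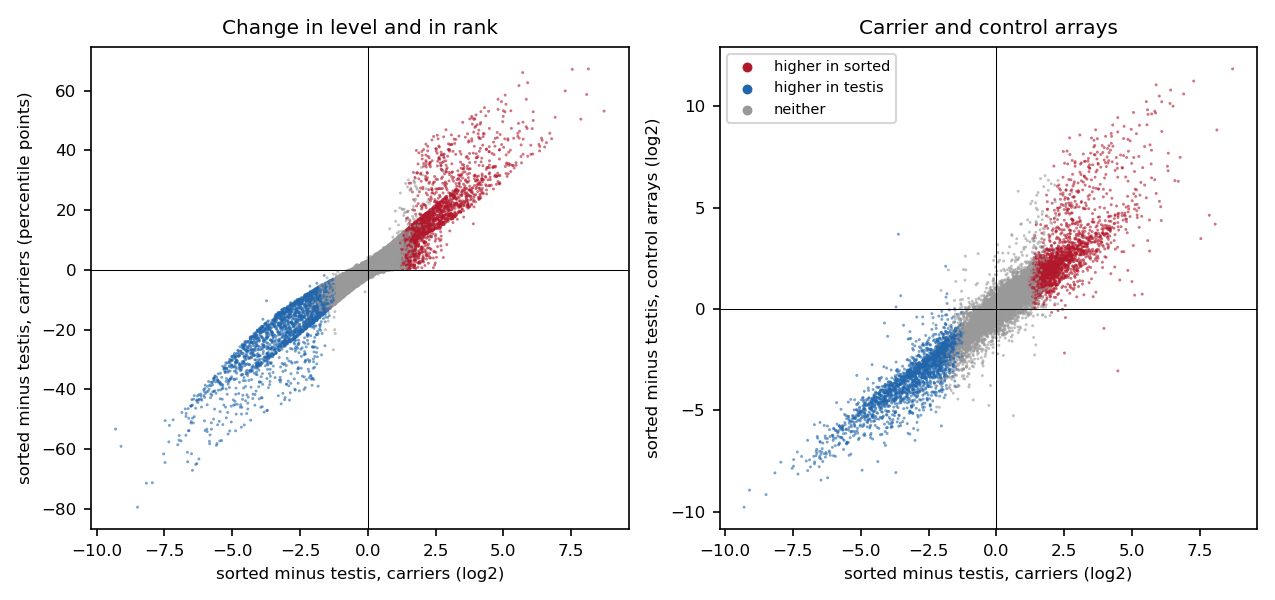
Each point is 1 of the tested genes, coloured by its class beyond 2-fold. The left panel sets the log2 change (x axis) against the change in percentile rank (y axis) in the carriers, and the right panel sets the carrier change (x axis) against the change in the control arrays (y axis, 2 against 2 arrays, log2). Red genes lie mostly to the upper right and blue genes mostly to the lower left; in the right panel 1979 of 1983 red and 2071 of 2077 blue genes have the same sign on both axes.

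Signal quality differed between the materials on every array. The probe sets for the 3' and 5' ends of Gapdh differed by 3.26 to 3.98 log2 units in sorted cells and by -0.07 to 0.14 in testes, and those of beta-actin by 3.06 to 4.41 against 1.11 to 1.37. The poly-A control RNA of the bacterial gene dap showed a like gap, 4.55 to 6.02 against 2.34 to 2.66, while the hybridization control bioC, which does not pass through labelling, gave 0.03 to 0.16 against 0.09 to 0.16. Replicates were also more variable in sorted cells, with a median within-group SD of 0.47 against 0.09. Ttf+/+T43H sorted replicate 2 had the lowest mean correlation with its own group, 0.941, and among t12+/+T43 sorted arrays it was replicate 2, at 0.958, beside 0.970 for replicate 3. Results are also given without a pair of arrays picked from earlier results of these data, Ttf+/+T43H sorted replicate 2 and t12+/+T43 sorted replicate 3. Without that pair, 2459 genes were higher and 2500 lower beyond 2-fold, and 4118 of the 4172 calls were shared. The part of labelling in single differences was not tested.

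Promoters of the tested genes were searched for known sequence motifs. From RefSeq (GRCm38.p6), a window of 250 bases before to 50 after the first listed start site was found for 8221 of the tested genes. Each window was searched on both strands for GGCAGTT (the core bound by MYB proteins such as A-MYB), GTTGCC (a core of the sites of RFX factors), TGACGTCA (the full cyclic AMP response element, bound by CREM), CAAGGTCA (the site of SF1, the steroidogenic factor) and the CArG box (bound by serum response factor). Promoters with a match are printed for 6 called genes from the pachytene, spermatid, Leydig and peritubular lists, with the match in capitals. They were picked because they hold a match, so they do not show how common it is. GGCAGTT was in 1 of 25 pachytene promoters, TGACGTCA in 1 of 30 spermatid promoters, CAAGGTCA in 1 of 10 Leydig promoters and the CArG box in 1 of 9 peritubular promoters.
The first is Pgk2, phosphoglycerate kinase of germ cells, at chr17:40208560-40208859 (minus strand), with GGCAGTT in capitals.
Pgk2: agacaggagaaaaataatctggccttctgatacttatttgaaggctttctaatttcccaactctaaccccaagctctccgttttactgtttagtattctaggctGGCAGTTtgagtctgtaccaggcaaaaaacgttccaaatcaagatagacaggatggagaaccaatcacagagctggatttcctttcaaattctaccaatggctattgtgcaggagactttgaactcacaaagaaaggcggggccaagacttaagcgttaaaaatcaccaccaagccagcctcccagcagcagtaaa
Next is Tcp11, a testis protein of the t complex, at chr17:28080590-28080889 (minus strand), with 1 match on each strand.
Tcp11: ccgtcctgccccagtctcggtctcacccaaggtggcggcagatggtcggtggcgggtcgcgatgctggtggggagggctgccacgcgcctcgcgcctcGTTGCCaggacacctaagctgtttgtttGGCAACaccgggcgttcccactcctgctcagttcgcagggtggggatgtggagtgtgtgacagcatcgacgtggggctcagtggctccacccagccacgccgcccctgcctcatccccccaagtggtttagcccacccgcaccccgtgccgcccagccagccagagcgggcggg
Spag6, a protein of the sperm axoneme, at chr2:18698772-18699071 (plus strand), holds 1 match close to its start.
Spag6: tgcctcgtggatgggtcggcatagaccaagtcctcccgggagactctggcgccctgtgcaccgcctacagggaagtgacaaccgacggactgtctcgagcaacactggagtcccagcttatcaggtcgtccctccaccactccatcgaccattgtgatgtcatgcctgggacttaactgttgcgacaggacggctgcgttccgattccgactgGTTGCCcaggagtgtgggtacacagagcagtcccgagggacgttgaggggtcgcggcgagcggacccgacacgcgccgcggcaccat
Izumo1, the sperm protein that binds the egg, at chr7:45621561-45621860 (plus strand), holds a full cyclic AMP response element; its rise of 2.18 ± 0.45 lost its call in 9 of 23 alternatives.
Izumo1: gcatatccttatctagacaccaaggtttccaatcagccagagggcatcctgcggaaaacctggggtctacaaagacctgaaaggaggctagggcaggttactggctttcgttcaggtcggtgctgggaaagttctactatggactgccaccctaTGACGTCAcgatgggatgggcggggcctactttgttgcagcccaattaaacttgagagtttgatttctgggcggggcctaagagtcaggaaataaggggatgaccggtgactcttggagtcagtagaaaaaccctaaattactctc
Klk1b21, a kallikrein of Leydig cells, at chr7:44102042-44102341 (plus strand), holds an SF1 site on the opposite strand.
Klk1b21: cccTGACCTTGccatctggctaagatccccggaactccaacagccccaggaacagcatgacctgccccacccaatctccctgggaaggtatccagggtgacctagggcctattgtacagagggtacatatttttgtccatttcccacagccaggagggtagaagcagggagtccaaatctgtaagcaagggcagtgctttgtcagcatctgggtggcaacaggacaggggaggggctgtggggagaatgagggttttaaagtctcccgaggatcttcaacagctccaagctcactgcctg
Myl9, the smooth muscle myosin light chain, at chr2:156775214-156775513 (plus strand), holds a CArG box.
Myl9: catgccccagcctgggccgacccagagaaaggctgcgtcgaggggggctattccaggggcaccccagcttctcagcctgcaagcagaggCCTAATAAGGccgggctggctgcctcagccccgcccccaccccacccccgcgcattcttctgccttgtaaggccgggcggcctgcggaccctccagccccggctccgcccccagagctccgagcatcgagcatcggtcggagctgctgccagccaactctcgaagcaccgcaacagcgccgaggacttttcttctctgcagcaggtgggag

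GTTGCC was in 17.5% of the 1689 sorted-class promoters, in 9.80% of the 1684 testis-class promoters and in 13.6% of all. GGCAGTT was in 4.91% and 2.91%, beside 3.67% of all. TGACGTCA was in 3.26% and 1.78%, beside 3.38%. CAAGGTCA was in 1.07% and 1.25%, beside 1.01% of all, and the CArG box in 0.95% and 1.90%, beside 1.29%. Among the lists, GTTGCC was in 7 of 21 promoters of tektin, dynein and radial spoke genes and in 7 of 25 of pachytene genes. Like shares stood in lists of other kinds: 3 of 10 Leydig promoters, 2 of 8 of X parents of retrocopies and 2 of 8 of imprinted genes. These counts are descriptions without a test, and a match is not evidence of binding.

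Genes of synapsis and recombination were well above background in both materials. In the list of synapsis and chromosome axis genes, 3 of 14 were called higher in sorted cells, 0 lower, and the median change was 0.89, beside 0.24 over all genes. That is 21.4% of the list called higher, near the 20.4% of all tested genes; 21.2% of all genes were called lower, and the count of each further list stands beside these shares. Sycp2, a component of the chromosome axis, had log2 levels of 14.72 to 15.59 in sorted cells (median 15.21) and 12.92 to 13.31 in testes (median 13.13). The ranges did not overlap, and the change was 1.99 ± 0.15 (limma's moderated SE here and below, n = 6 against 6), with an adjusted p of 9.9e-05 beyond 2-fold. In rank it moved by 0.68 percentile points only, since it was near the top of the array in both materials. Terb2, which tethers telomeres to the nuclear envelope, was higher by 2.37 ± 0.23 (adjusted p 0.00019). Meiob, a single-strand DNA binding protein, was higher by 1.59 ± 0.23, a call that ended in 12 of 23 alternatives, leaving out single arrays among them. Without that pair of arrays the list's median was 0.75, and after quantile normalization it was 0.35. Sycp3, the main lateral element protein, changed by 0.70 ± 0.14 and Sycp1, the transverse filament, by 0.28 ± 0.27, neither called beyond 2-fold. Sycp1 was at 12.84 to 14.25 in sorted cells and 13.14 to 13.76 in testes, so the ranges overlapped. Rec8, the meiotic cohesin of early prophase, was at -2.18 ± 0.53, also not called (adjusted p 0.057).

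Among recombination genes 6 of 18 were called higher and 0 lower, with a median change of 0.95. Spo11, which makes the meiotic double-strand breaks, was at 11.02 to 12.70 in sorted cells and 9.18 to 10.36 in testes, without overlap, a rise of 2.31 ± 0.29. Hsf2bp, which brings Brca2 to meiotic breaks, rose by 2.81 ± 0.09, Brca2 itself by 2.24 ± 0.16 and Psmc3ip, a cofactor of strand exchange, by 2.51 ± 0.30. Msh4, which marks crossover intermediates, rose by 2.36 ± 0.43 and Ccnb1ip1, needed for crossovers, by 1.97 ± 0.17. Dmc1, the meiotic recombinase, changed by 0.80 ± 0.12 and Brca1 by -1.07 ± 0.11, neither beyond 2-fold.

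Pachytene and meiotic division genes divided into those already high in the juvenile testis and those near background there. Of 31 tested, 14 were called higher, 1 lower, and the median change was 1.47 (6.09 percentile points, beside 0.71 over all genes). Pgk2, whose promoter is printed above, was at 7.43 to 11.07 in sorted cells (median 10.36) and 2.61 to 3.30 in testes (median 2.76). All 6 sorted arrays lay above all testes, the 2 lowest being t12+/+T43 replicates 1 and 3, and the change was 6.78 ± 0.53 (adjusted p 1.2e-06 beyond 2-fold). Tcp11 was at 6.62 to 10.30 against 2.78 to 3.96, a rise of 5.40 ± 0.45. Spag6 was at 7.76 to 8.74 against 2.71 to 3.31, a rise of 5.14 ± 0.17 with little spread between arrays. Boll, an RNA-binding protein needed for the meiotic division, rose by 3.97 ± 0.08, with all testes at 2.80 to 2.83. Adam3 and Adam2, sperm surface proteins, rose by 6.31 ± 0.77 and 2.67 ± 0.50, and Hspa1l, a testis heat shock protein, by 4.48 ± 0.84.

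Among further members of the same list, Ccna1, the cyclin of late prophase, was at 4.64 to 7.23 against 3.33 to 3.98 and rose by 2.42 ± 0.33. Nek2, a kinase of centrosome separation, was already high in testes at 11.83 to 12.32 and rose by 2.23 ± 0.26 to 13.12 to 14.89. Ybx2, which stores messenger RNA in germ cells, was at 9.27 to 12.56 against 7.63 to 9.30, ranges that just overlapped, and rose by 3.03 ± 0.49. Tesmin rose by 2.46 ± 0.39. Mybl1, which encodes A-MYB, the activator of pachytene genes, was the only one of the 31 called for testis. It was at 5.13 to 6.20 in sorted cells (median 5.63) and 7.53 to 7.83 in testes (median 7.64), without overlap, a fall of 2.04 on the log2 scale (SE 0.15, adjusted p 5.2e-05 beyond 2-fold). The control arrays gave -2.23 for Mybl1, and its rank fell by 11.1 percentile points. Hspa2, the chaperone of the synaptonemal complex, was at -0.19 ± 0.27, a difference whose sign depends on the scaling.

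The piRNA pathway, which silences transposons and processes pachytene transcripts, had 7 of 17 members called higher and 2 lower, with a median of 1.37. Tdrd9, a helicase of the pathway, was at 12.42 to 14.23 against 10.27 to 11.01 and rose by 2.91 ± 0.28. Tdrd12 rose by 2.82 ± 0.37, Piwil2, a piRNA-binding protein, by 2.78 ± 0.31 and Mov10l1, the helicase that feeds piRNA precursors to it, by 2.16 ± 0.26. Piwil1, the pachytene piRNA-binding protein, was at 1.36 ± 0.50 with overlapping ranges and was not called. Tdrd1, a scaffold of germ granules, and Pld6, a nuclease on mitochondria, went the other way, at -2.07 ± 0.41 and -1.72 ± 0.27. Their calls ended in 13 and 7 of 23 alternatives, also without that pair of arrays.

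**Figure D2:**
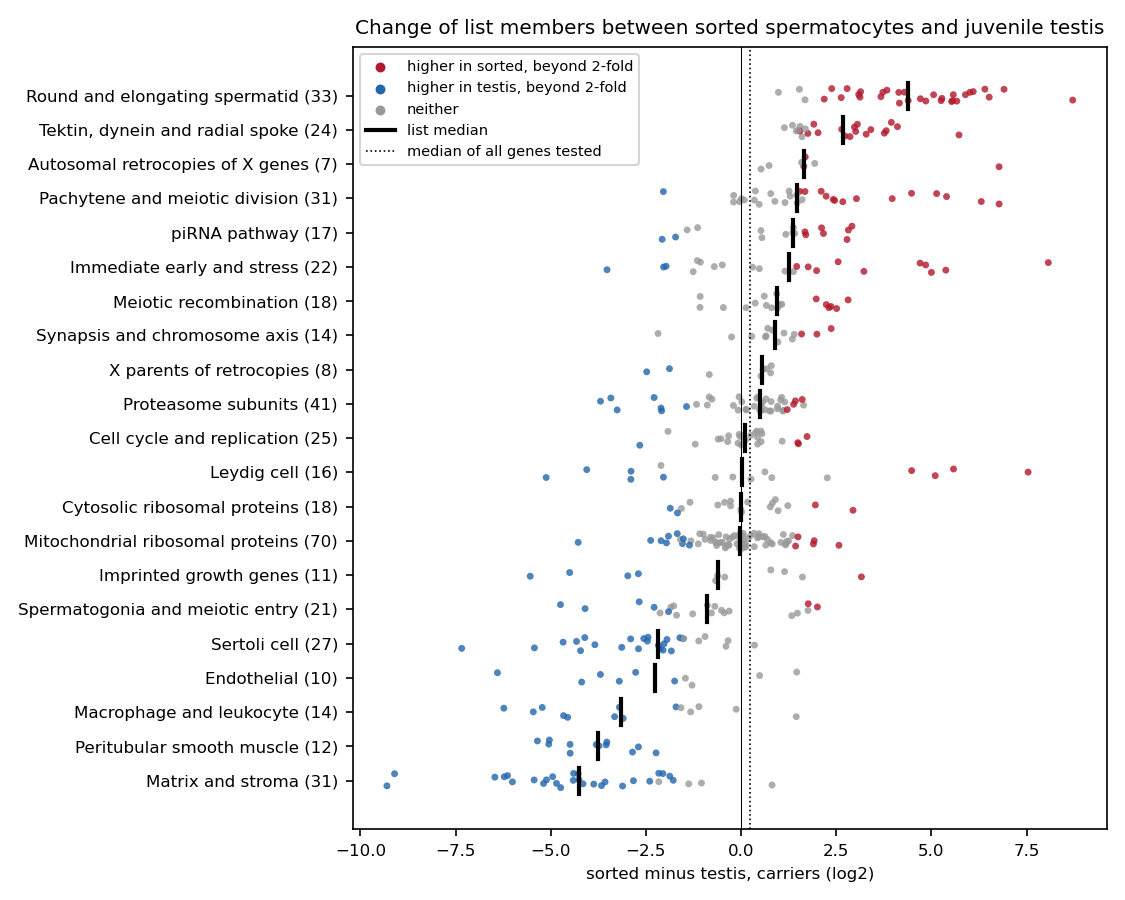
Each point is 1 tested gene of a list (rows, with the number of tested members), placed by its log2 change between 6 sorted and 6 testis arrays, and coloured by its class beyond 2-fold. Black bars are list medians, from 4.39 for spermatid genes to -4.26 for matrix and stroma, and the dotted line is the median of all tested genes at 0.24.

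Spermatid genes had the largest median change among the lists, 4.39, or 41.1 percentile points, and 30 of 33 were called higher in cells sorted as pre-mid pachytene. In the testes, 29 of the 33 were under log2 4 on all 6 arrays. Those 29 passed the filter through the sorted arrays only and could hardly be called lower, so the count is not independent of the filter. Prm1, the protamine that replaces histones in sperm, was at 8.16, 11.62 and 8.54 in t12+/+T43 sorted replicates 1, 2 and 3 and at 12.97, 14.09 and 13.09 in Ttf+/+T43H sorted replicates 1, 2 and 3. In testes it stayed between 2.65 and 2.79, so the groups were far apart, and the change of 8.71 ± 0.77 was the largest rise of a named gene (adjusted p 2.7e-06 beyond 2-fold). Tnp1 and Tnp2, the transition proteins, rose by 6.52 ± 0.67 and 4.85 ± 0.91. Smcp, of the sperm mitochondrial capsule, rose by 6.91 ± 0.78, Oaz3, the antizyme of spermatids, by 6.40 ± 0.73, Odf1, of the outer dense fibres, by 5.89 ± 0.86, and Akap3, of the fibrous sheath, by 5.67 ± 0.46. Acr, the acrosomal protease acrosin, was at 5.65 to 8.25 against 2.09 to 3.45 and rose by 4.39 ± 0.28.

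The spermatid list also had the widest range of mean levels among the sorted arrays. Its mean level was 8.72 to 9.19 on the Ttf+/+T43H sorted arrays and 5.03 to 7.41 on the t12+/+T43 sorted arrays, against 2.89 to 3.12 on the testes. The median change was 5.98 within Ttf+/+T43H and 2.66 within t12+/+T43, and 8.09 in the control arrays. In mid-late-pachytene cells of C57BL/10J the mean level was 9.06 and 9.60, below the 10.21 and 10.78 of the pre-mid cells of the same strain. Protamine transcripts are known from spermatids, and whether other cells in the sorted fractions contributed to these values was not tested. Spam1, Spaca1 and Dkkl1 were the members not called, and Spaca1 and Dkkl1 were well above background in testes, at 7.86 to 8.45 and 6.92 to 9.41.

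The difference itself depended on genotype for 69 genes (0.688%; limma, interaction of material and genotype), with 5 more positive in t12+/+T43 (0.0499%) and 64 more negative (0.638%). These counts rested on single arrays: they were 28 and 359 without t12+/+T43 sorted replicate 2, and 0 or 1 and 19 to 21 without any 1 of the 6 testis arrays. The interaction fit also missed many changes in simulated data. It recovered 0% of changes of 1 log2 unit and 52% of changes of 2, so a gene not called may still differ between genotypes. Tnp2, Prm2, Gapdhs and Tnp1 were among the 64. Tnp2 was at 9.62 to 10.87 on Ttf+/+T43H sorted arrays and 3.46 to 4.68 on t12+/+T43 sorted arrays, without overlap, and the interaction was -5.82 ± 0.52 (adjusted p 0.0013).

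Axoneme genes, which build the sperm tail, were higher too. Of 24 tektin, dynein and radial spoke genes, 17 were called higher and 0 lower, and the median was 2.68 (2.57 within Ttf+/+T43H and 2.22 within t12+/+T43). In the testes 11 of the 24 were under 4 on every array, so these passed the filter through the sorted arrays only. Cfap45, a protein inside the microtubule doublets, was at 5.90 to 10.23 against 2.29 to 3.14 and rose by 5.72 ± 0.56. Tekt4, a tektin, was at 4.67 to 7.34 against 1.84 to 1.90 and rose by 3.95 ± 0.31. Dnali1, an inner-arm dynein chain, rose by 4.11 ± 0.25, and the dynein heavy chains Dnah1 and Dnah2 by 3.05 ± 0.25 and 2.86 ± 0.15.

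Of 21 spermatogonial genes, 5 were called lower (23.8%, near the 21.2% of all genes) and 2 higher (9.52%). The median was -0.89, and -0.29 with centred arrays. Ccnd2, the cyclin of differentiating spermatogonia that somatic cells express too, was at 3.55 to 6.60 against 9.07 to 9.42 and fell by 4.74 (SE 0.42). Cd9, a surface protein of spermatogonia and other cells, was at -4.10 ± 0.50, and Uchl1 at -2.28 ± 0.52 with overlapping ranges. Stra8, which starts meiosis, was at 8.94 to 11.79 in sorted cells and 11.56 to 11.86 in testes, a difference of -1.77 ± 0.45 that was not called. Kit, the receptor of differentiating spermatogonia and Leydig cells, was at -0.31 ± 0.35. Ythdc2, which lets germ cells leave the mitotic programme, rose by 2.00 ± 0.18 and Sohlh2, a transcription factor of spermatogonia, by 1.76 ± 0.30. The calls of Uchl1 and Sohlh2 ended in 12 and 11 of 23 alternatives, leaving out single arrays among them.

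**Figure D3:**
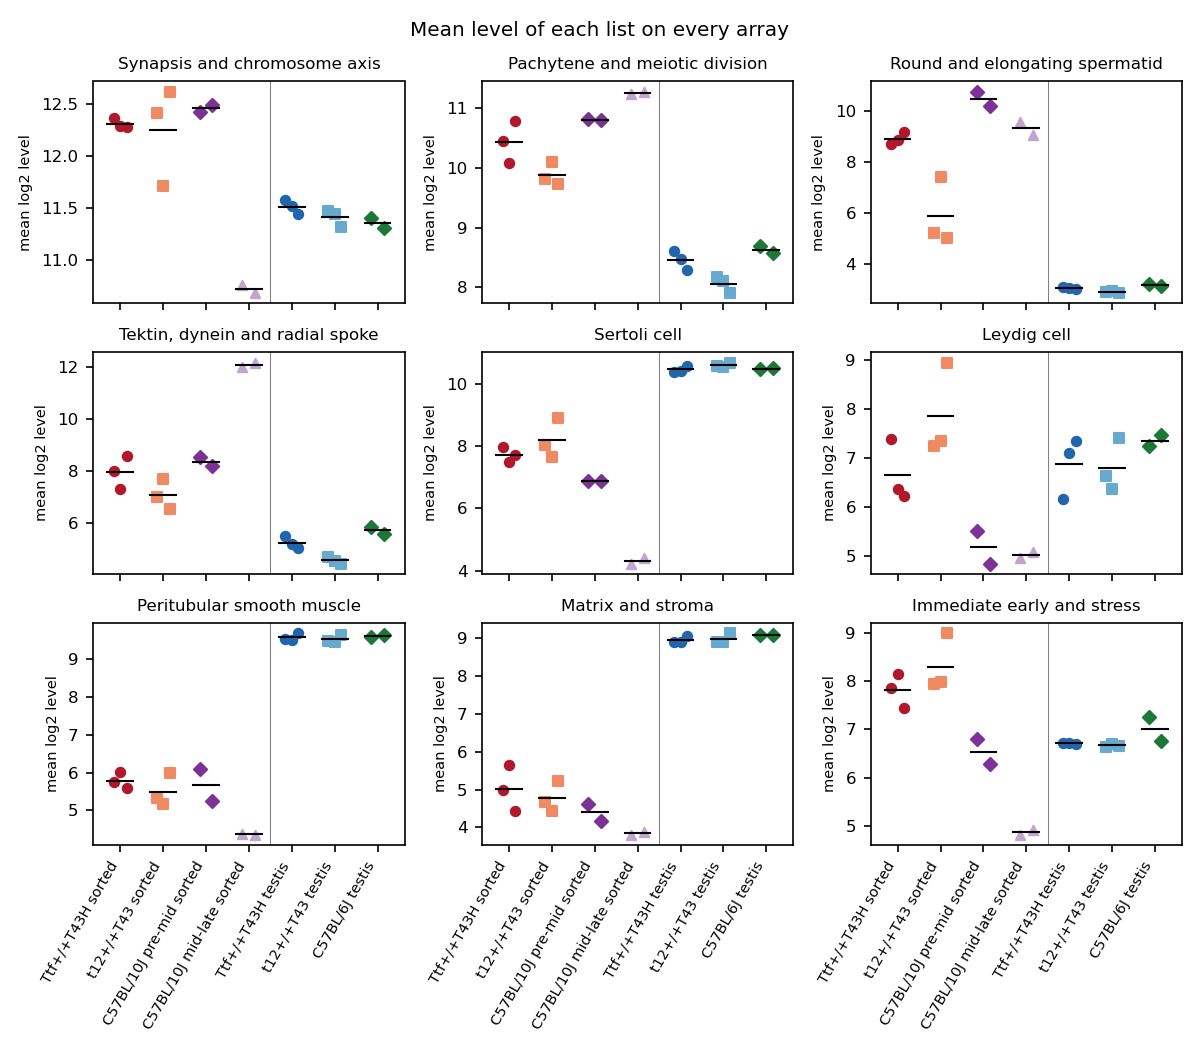
Mean log2 level (y axis) of the tested members of each list on every array, by group (x axis, sorted groups left of the grey line and testes right of it); points are arrays and bars are group means. Peritubular and matrix lists lie at 4.42 to 6.02 on all 6 carrier sorted arrays and at 8.89 to 9.67 on the 6 carrier testes, while Leydig levels overlap.

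Somatic cell markers were mostly lower in sorted cells, each list to its own degree. For Sertoli cells, the nurse cells of the tubule, 21 of 27 genes were called lower, 0 higher, and the median was -2.17. The summed list stood at a mean of 7.47 to 8.91 on sorted arrays and 10.39 to 10.68 on testes, with 5 members under 4 on all sorted arrays. Sox8, a Sertoli transcription factor, was at 2.30 to 2.55 against 9.22 to 10.22, in effect at background in every sorted array, a change of -7.34 ± 0.14. Shbg, the sex hormone binding globulin, was at 4.63 to 7.27 against 10.91 to 11.43, a change of -5.43 ± 0.37. Sox9, the factor that defines the lineage, was at -4.32 ± 0.21, Dhh, the Sertoli hedgehog signal, at -4.67 ± 0.18, and Kitl, the ligand of Kit, at -4.22 ± 0.15. Some members of the list remained well above background in sorted cells. Clu was at 13.36 to 15.08 there and 15.17 to 15.25 in testes, a difference of -1.11 ± 0.23 that was not called beyond 2-fold. Cldn11, of the blood-testis barrier, stayed at 8.19 to 10.26 although it fell by 3.84 (SE 0.28).

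Matrix and peritubular muscle genes had the lowest medians of all lists. All 12 tested peritubular genes, of 16 on the array, were called lower, with a median of -3.77. Of 31 matrix and stroma genes 27 were called lower, with a median of -4.26. In these lists 2 and 6 members were under 4 on every sorted array and passed the filter through the testes only. Col3a1, a fibrillar collagen, was at 3.16 to 5.68 in sorted cells (median 4.28) and 13.50 to 13.87 in testes (median 13.58). That change of -9.30 ± 0.36 was the largest fall of a named gene (adjusted p 1.3e-09 beyond 2-fold), and its rank fell by 53.3 percentile points. Col1a2 was at -9.10 ± 0.22. Tcf21, a transcription factor of interstitial stroma, was at 3.60 to 6.10 against 11.22 to 11.41, a change of -6.47 ± 0.47. Acta2, smooth muscle actin, fell by 2.85 (SE 0.17) but was still at 10.16 to 11.28 in sorted cells, and Myl9, whose CArG box is printed above, was at 5.59 to 10.28 against 11.89 to 12.26. Cnn1, calponin, was at 1.91 to 2.14 in sorted cells and at 6.83 to 7.21 in testes. Fn1, fibronectin, was the 1 matrix gene with a positive change, 0.81 ± 0.20, and it was not called.

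Of endothelial genes, 6 of 10 tested (17 on the array) were called lower, with a median of -2.26 and 5 members under 4 on all sorted arrays. Cd34 was at 2.22 to 4.38 against 8.96 to 9.58, a change of -6.40 ± 0.37, and Vwf, the von Willebrand factor, at 1.46 ± 0.34, not called. Of macrophage and leukocyte genes, 9 of 14 tested (19 on the array) were called lower, with a median of -3.15 and 9 members under 4 on all sorted arrays. C1qa, a complement component of macrophages, was at 1.88 to 1.91 against 7.59 to 8.71, and Csf1r, the receptor that macrophages depend on, at 2.37 to 2.51 against 6.82 to 7.35. These defining markers were under 4 on all 6 sorted arrays, as was Tyrobp, an adaptor of myeloid receptors, at 2.20 to 2.47. Aif1, another gene of the list, was at 3.54 to 7.96 against 4.24 to 5.03.

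Leydig cell genes, of the steroid-making cells between the tubules, did not move together. Of 16, 4 were called higher, 5 lower, and the median was 0.02. Ptgds, prostaglandin D synthase, was at 8.36 to 11.97 in sorted cells (median 9.36) and 2.01 to 2.11 in testes (median 2.07), without overlap, a change of 7.54 ± 0.45 and the largest rank rise of a named gene, 67.1 percentile points. Klk1b21 was at 6.30 to 9.55 against 2.13 to 2.35, a rise of 5.58 ± 0.41, and Klk1b24 rose by 5.10 ± 0.51. These 2 kallikreins are close paralogs, and probes may not keep them apart. All 3 are known from adult Leydig cells, among other sites. The sorted cells came from older males than the testes, and the part of age in these rises was not tested.

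Changes of other members of the Leydig list went both ways. Nr5a1, which encodes SF1, was at 2.68 to 6.38 against 8.17 to 8.51, a fall of 4.05 (SE 0.54), and Akr1c14, a steroid reductase, was at -5.12 ± 0.09. Cyp17a1, a steroid hydroxylase, was at 9.27 to 12.98 in sorted cells and 1.84 to 9.36 in testes, a change of 4.48 ± 1.41 with an adjusted p of 0.04 beyond 2-fold; the call ended in 13 of 23 alternatives, without that pair of arrays among them. Star and Cyp11a1, which start steroid synthesis, were at -0.22 ± 0.96 and 0.63 ± 0.76, with ranges that overlapped. In the control arrays the list's median was -2.76, with Ptgds at 3.47, Cyp17a1 at -3.06 and Cyp11a1 at -5.27. Within t12+/+T43 it was 0.94 and within Ttf+/+T43H -0.73, and the array t12+/+T43 sorted replicate 3 had the highest mean level of the list, 8.94.

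**Figure D4:**
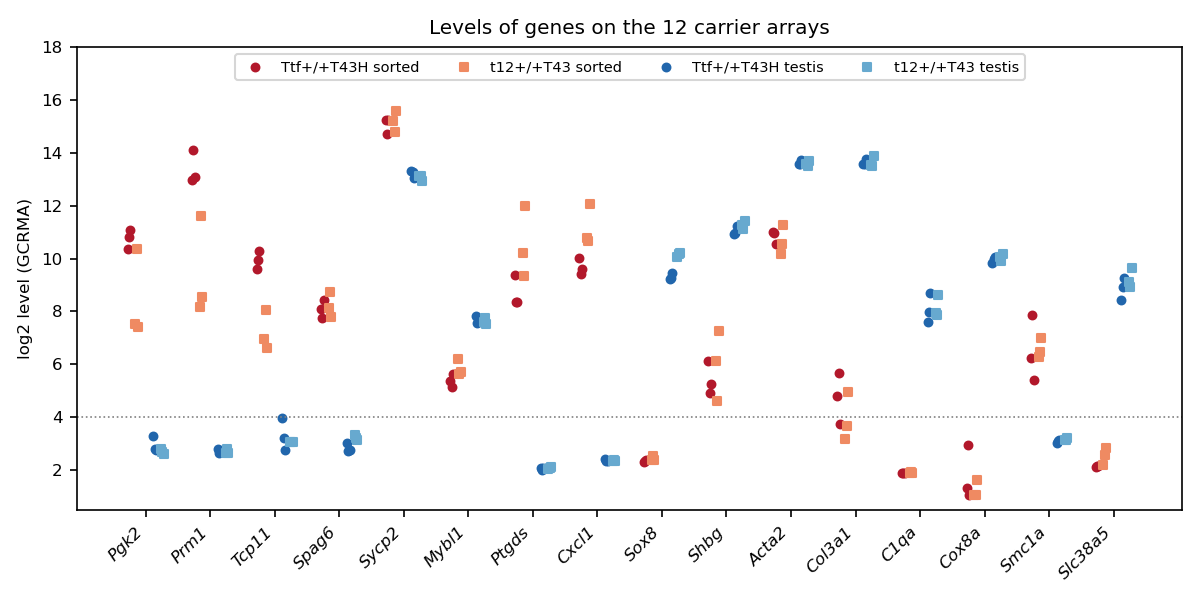
Log2 level (y axis) of single genes (x axis) on the 12 carrier arrays, sorted cells in red and orange and testes in blue, circles for Ttf+/+T43H and squares for t12+/+T43; the dotted line marks 4, below which values carry little signal over background. Pgk2, Prm1, Tcp11 and Ptgds are under 4 in every testis, and Sox8, C1qa, Cox8a and Slc38a5 are under 4 in every sorted array.

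Immediate early and stress genes rose in part. Of 22, 10 were called higher and 3 lower, with a median of 1.26, while the median in the control arrays was -0.07. Cxcl1, a neutrophil chemokine, was at 9.43 to 12.07 (median 10.35) against 2.34 to 2.42 (median 2.35), a rise of 8.07 ± 0.31 (adjusted p 1.5e-09 beyond 2-fold). Lcn2, an iron-binding protein of acute inflammation outside the list, was at 8.97 to 13.07 against 2.67 to 2.85 and rose by 7.85 ± 0.48. Both also rose in the control arrays, by 4.18 and 4.62. Fos and Fosb, subunits of the AP-1 factor, rose by 4.70 ± 0.19 and 5.00 ± 0.38, and Il1a, an inflammatory cytokine, by 4.85 ± 0.71. Jun was at -1.07 ± 0.23, not called, and Klf6 fell by 3.52 (SE 0.28). The sorted cells had been through tissue dissociation and sorting and the testes had not, and the part of that step in these values was not tested.

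The X chromosome differed from the autosomes in direction. Of 336 X genes tested, 21 were higher beyond 2-fold (6.25%, beside 20.4% of all genes) and 139 lower (41.4%, beside 21.2%). The median X change was -1.16 (-7.20 percentile points), while the medians of the autosomes ran from -0.04 on chromosome 17 to 0.41 on chromosome 8. Per array, the mean X level minus that of the autosomes was -0.89, -0.27 and -1.29 in Ttf+/+T43H sorted replicates 1, 2 and 3 and -0.91, -0.75 and -0.18 in t12+/+T43 sorted replicates 1, 2 and 3. It was 0.29 to 0.59 on the 6 testes, so every sorted array was below every testis. The difference in mean X level was -1.17, and without the replicates at -0.27 and -0.18 it was -1.41. Those replicates had the highest X levels of the 6 sorted arrays, so leaving them out could only widen the difference. C57BL/10J pre-mid cells were at -0.77 and -0.73, and the mid-late cells at -3.63 and -3.74. Somatic cell lists were lower on the same sorted arrays, at the levels given above, and their part in the X difference was not tested.

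**Figure D5:**
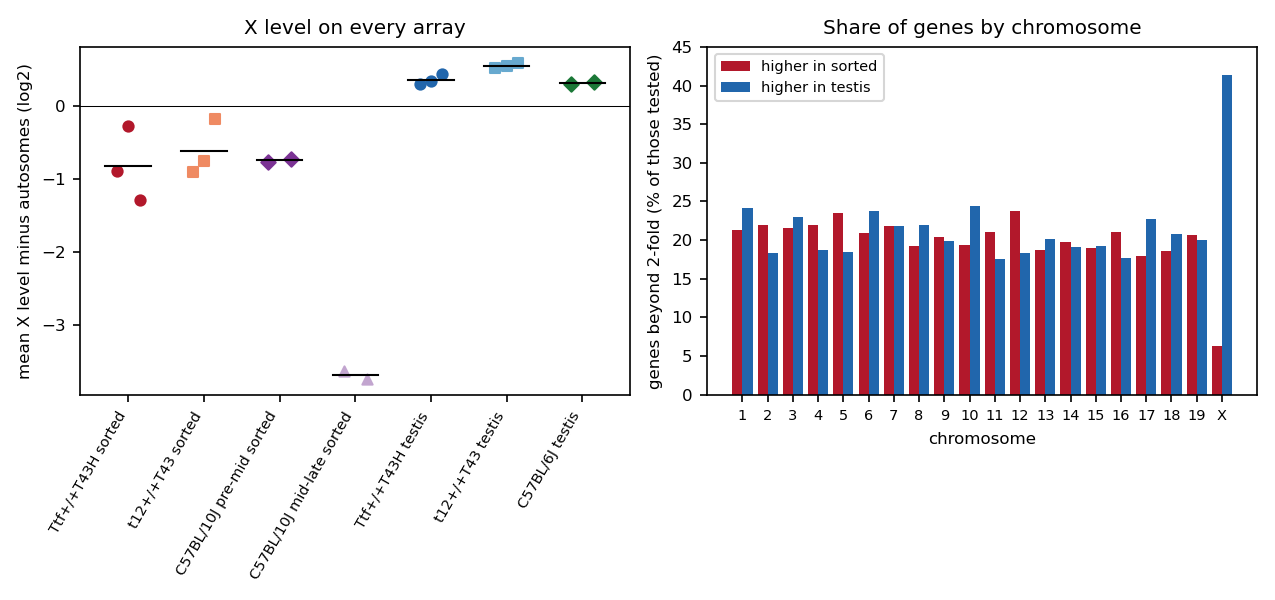
Left, mean log2 level of 336 X genes minus that of autosomal genes on every array (points) with group means (bars); all 10 sorted arrays are below 0 and all 8 testes above it. Right, percent of tested genes on each chromosome that were higher in sorted cells (red) or in testes (blue) beyond 2-fold, with 6.25% and 41.4% on the X.

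Single X genes lay at both ends; those named in this paragraph were chosen after their values were seen, except Akap4 and Alas2. Slc38a5, an amino acid transporter, was at 2.11 to 2.83 in sorted cells (median 2.18) and 8.42 to 9.64 in testes (median 9.01), a change of -6.71 ± 0.17. Gpc3, a glypican of stroma, was at -5.22 ± 0.09, Msn, the membrane linker moesin, at -4.47 ± 0.10, and Cited1 at -4.50 ± 0.35. The higher ones included genes with testis expression. Akap4, of the fibrous sheath, was at 4.76 to 10.83 against 2.50 to 2.59, Zcchc13 at 5.67 to 9.22 against 2.16 to 2.21, and Esx1 at 6.86 to 8.03 against 3.24 to 3.34. Smc1a, the cohesin subunit of all cells, was at 5.41 to 7.86 against 3.04 to 3.22, a rise of 3.42 ± 0.33. Alas2, the haem synthesis enzyme of red cells, was at 3.89 to 4.92 against 1.71 to 2.35, rose by 2.70 ± 0.16 and was the only tested gene of the red blood cell list. On the Y, Zfy2 and Usp9y rose by 2.26 ± 0.33 and 1.96 ± 0.27, and Uty was lower by -2.93 ± 0.17, beside -0.40 in the control arrays.

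Some autosomal genes are retrocopies of X genes and are used in germ cells when the X is quiet. Of 7 tested, 3 were called higher, 0 lower, and the median was 1.65; of 8 X parents tested, 2 were lower (a share near the 21.2% of all genes) and 0 higher, with a median of 0.55. Ubl4a, 1 of the 2, lost its call in 15 of 23 alternatives. Pdha1, the X copy of the pyruvate dehydrogenase subunit, was at 5.08 to 6.16 against 7.79 to 8.44 and fell by 2.48 (SE 0.18). Its autosomal copy Pdha2 was at 11.25 to 14.62 against 11.16 to 12.09, a difference of 1.93 ± 0.49 that was not called (adjusted p 0.092). Utp14b, a retrocopy of a ribosome biogenesis factor, rose by 1.65 ± 0.11 while the parent Utp14a was at 0.52 ± 0.36. Cetn1, the germ cell centrin, was higher by 1.69 ± 0.26, a call that ended in 12 of 23 alternatives, and the parent Cetn2 was at -0.84 ± 0.24. Pgk2, given above, had the largest change among the retrocopies, and its parent is not among the genes analysed here.

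Of 11 imprinted growth genes, 4 were called lower and 1 higher beyond 2-fold. Dlk1 was at 1.99 to 2.23 in sorted cells and 7.44 to 7.85 in testes, and Meg3, the non-coding RNA of the same imprinted domain, was at -4.50 ± 0.43. Igf2, a fetal growth factor, was the 1 member called higher beyond 2-fold, at 7.66 to 8.41 against 4.78 to 4.85, a rise of 3.16 ± 0.11. Cell cycle and replication genes were nearly level, with 21 of 25 called in neither direction and a median of 0.11 (-0.18 after quantile normalization). Ccne1, Cdc20 and Mki67 rose by 1.51 ± 0.10, 1.73 ± 0.21 and 1.49 ± 0.18, the last with a call that ended in 7 of 23 alternatives, and Ccnd3 fell by 2.66 (SE 0.19).

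Housekeeping lists lay near the median of all genes. Cytosolic ribosomal protein genes had a median of 0.00 with 14 of 18 called in neither direction, and mitochondrial ribosomal protein genes -0.04 with 56 of 70. Under quantile normalization these medians were -0.46 and -0.36, and with centring 0.60 and 0.55, so the direction depended on the scaling. Of 41 proteasome genes, 4 were higher and 7 lower, with a median of 0.49 that was -0.23 after quantile normalization. The 7 included the immune subunits Psmb9 and Psmb10, which interferon induces, at -3.26 ± 0.51 and -3.42 ± 0.25, and the activator subunits Psme1 and Psme2, at -2.28 ± 0.45 and -3.69 ± 0.71. Psmb9 was at 2.30 to 2.74 in sorted cells. Its change was -1.63 within Ttf+/+T43H, where alone it was not called, and -4.88 within t12+/+T43.

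Single genes of energy metabolism lay in both classes; apart from Cox8a, Ldhc and Gapdhs they were chosen after their values were seen, so they show no theme. Cyct, testis cytochrome c, was at 12.72 to 14.74 against 10.87 to 12.22 and rose by 2.42 ± 0.34. Ldhc, the germ cell lactate dehydrogenase, was at 14.63 to 15.31 against 11.63 to 13.71 and rose by 2.10 ± 0.25, while Ldhb was at -1.41 ± 0.27, not called. Gapdhs, the sperm glycolytic enzyme, was at 4.62 to 10.21 against 1.90 to 1.94. Slc2a3, a glucose transporter of germ cells, rose by 2.48 ± 0.17 and Slc2a1, the transporter of most cells, fell by 2.13 (SE 0.19). Eno4 and Gk2, a sperm enolase and a testis glycerol kinase, rose by 2.55 ± 0.22 and 2.34 ± 0.32. Hk1, a widely used hexokinase, was higher by 2.20 ± 0.49 and Pgam2, a phosphoglycerate mutase, by 1.67 ± 0.25, calls that ended in 11 and 10 of 23 alternatives. Aldoa, the common aldolase, fell by 2.58 (SE 0.20), Slc25a4, an ADP/ATP carrier of mitochondria, by 2.11 (SE 0.18), Slc25a5, another such carrier, by 1.53 (SE 0.21; the call ended in 14 of 23 alternatives), and Vdac1, the outer membrane channel, by 4.11 (SE 0.28). Cox8a, the widely expressed form of a cytochrome oxidase subunit, was at 1.05 to 2.93 against 9.83 to 10.18, a change of -8.49 ± 0.29 and the largest rank fall of a named gene, -79.4 percentile points. Its testis form Cox8c was at 10.04 to 12.13 against 8.28 to 10.68, a difference of 1.60 ± 0.40 that was not called.

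Some of the largest changes fell outside the lists. Rbm15, an RNA-binding protein of the RNA methylation machinery, was at 10.47 to 11.20 against 3.99 to 4.43 and rose by 6.71 ± 0.13. Chd2, a chromatin remodeller, was at 8.91 to 9.87 against 2.75 to 2.87 and rose by 6.58 ± 0.14. Neither gene had overlapping arrays, and the control arrays gave 6.30 and 6.33. Tst, a sulphur transferase of mitochondria, was at 1.96 to 3.03 against 10.25 to 10.54, Fhl2, a muscle-related LIM protein, at 1.97 to 2.32 against 9.97 to 10.22, and Serpinh1, the collagen chaperone, at 2.99 to 3.27 against 10.40 to 10.98. Cyp26b1, which breaks down retinoic acid and is known from Sertoli and peritubular cells, was at 2.54 to 5.46 against 10.46 to 10.89.

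A stricter description asked for genes at log2 6 or more on all 6 arrays of one material and under 4 on all 6 of the other. Of the 10030 tested genes, 75 met this for sorted cells and 309 for testes. With limits of 7 and 5 the counts were 48 and 261. A value under 4 lies near the floor of the background correction and does not show that a transcript is absent. Signal quality differed between the materials, as given above, and its part in these counts was not tested. Listed genes among the 75 were Boll, Pgk2, Spag6, Tcp11, Akap3, Prm1, Tnp1, Klk1b21, Ptgds and Cxcl1. Among the 309 were Sox8, Dhh and Kitl of the Sertoli list, Akr1c14 of the Leydig list, Cnn1, Col1a1, Col5a2 and Pdgfra of muscle and stroma, Eng and Sox18 of vessels, C1qa, Csf1r, Fcer1g and Tyrobp of macrophages, and Dlk1. No synapsis, recombination or piRNA gene was in either set. With 14, 18 and 17 tested members and so few genes in the sets, that says little about these lists.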

How the data were processed

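Gene expression was measured on 18 mouse arrays. The deposited values are log2 levels from GCRMA, per the submitters' processing notes; its version, and which arrays were normalized together, are not given in the sources used here. Values were used as deposited. Of 16539 probe sets, 15780 carry 1 gene symbol and the rest were left out; 15752 were matched to a GRCm38.p6 annotation for names and chromosomes. Arrays give no read depth, and their number limits the precision.

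The 12 carrier arrays were fitted with limma 3.58.1 (R 4.3.3): lmFit with material and genotype, eBayes, and treat at a log2 change of 1 for calls beyond 2-fold. Tests are two-sided, with Benjamini-Hochberg adjustment across the 10030 tested genes. A further fit held the interaction of material and genotype. Control arrays (2 against 2) were fitted apart. The code was tested on simulated data. Named genes were the 15 largest rises and falls beyond 2-fold without overlap, the 10 largest rank changes each way, list members, retrocopy pairs and the 10 smallest interaction p-values; others are marked in the text. The members and lists were chosen with earlier results of these data known. After the files were read, 7 list entries were removed as aliases of other entries, as X-linked, or as lacking a retrocopy pair. The alternatives were no filter or one at log2 6, other scalings, array weights, a replicate block, no genotype block, single genotypes and leaving out arrays.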

Additional observations from a re-analysis of the deposited data

Results flagged for a closer look

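The difference between sorted cells and testes depended on genotype for 69 genes (0.688% of those tested, limma, interaction of material and genotype, adjusted p under 0.05). For 64 of them the difference, sorted minus testis, was lower in t12+/+T43 than in Ttf+/+T43H. Among named genes the interaction, t12+/+T43 minus Ttf+/+T43H on the log2 scale, was -5.82 for Tnp2, -4.88 for Gapdhs, -4.45 for Prm2, -3.86 for Tnp1, -3.69 for Iqcf1, -3.65 for Tex35, -2.92 for Spag4 and -2.70 for Izumo1. All 8 are known from testis, and all were lower in t12+/+T43 sorted cells. Tnp2, for example, changed by 7.76 in Ttf+/+T43H and by 1.94 in t12+/+T43. Psmb9 and Tap1, of antigen processing, were at -3.24 and -2.31, and here the testes differed. Sorted levels stayed at 2.30 to 2.74 and 1.63 to 1.66. Psmb9 was at 7.29 to 7.85 in t12+/+T43 testes and 3.77 to 4.58 in Ttf+/+T43H testes. Tap1 was at 4.58 to 4.93 in t12+/+T43 testes and 2.21 to 2.78 in Ttf+/+T43H testes. The count moved with single arrays: leaving out 1 array gave 0 to 28 genes higher and 19 to 359 lower, the most without t12+/+T43 sorted replicate 2. The cause of these differences was not tested.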

How the results depend on the processing

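Of 154 named genes called beyond 2-fold, 111 were called in all 23 alternatives, and no called gene turned its direction. The weights by material, list medians under each setting and the X level without the pair of sorted arrays picked from earlier results were added after seeing the data. Same-numbered arrays did not deviate together in every pair: the correlation of their deviations from group means ran from -0.34 to 0.66. Between testes of the 2 genotypes it was 0.47, 0.03 and 0.66 for replicates 1, 2 and 3, so some same-numbered testes did vary together. Whether the numbers mark a shared step was not tested, and the main fit did not use them. With the replicate block 2010 genes were higher and 2110 lower beyond 2-fold, and 2 and 49 depended on genotype. Without the filter 5342 genes were lower at an adjusted p under 0.05 by limma and 6543 lower in rank. Centred arrays gave 3438 higher beyond 2-fold. Genes whose difference depended on genotype were the least stable: without the filter, 0 higher (274 at an unadjusted p under 0.05) and 37 lower; filtered at log2 6, 1 and 27; with array weights, 2013 and 1186. Leaving out 1 array gave 0 to 28 higher and 19 to 359 lower, the highest without t12+/+T43 sorted replicate 2. With limits of 7 and 5, 48 genes met the stricter description for sorted cells.

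List medians moved with scaling. After quantile normalization they were 0.35 for synapsis, 0.66 for recombination, 0.70 for piRNA, -2.87 for macrophage, -0.46 for cytosolic ribosomal, -0.23 for proteasome and -0.36 for mitochondrial ribosomal genes. After centring they were 1.49 for synapsis, 1.54 for recombination, 2.07 for pachytene, 2.24 for retrocopies, -1.58 for Sertoli, -3.17 for peritubular, -3.66 for matrix, -1.66 for endothelial, -2.55 for macrophage, -0.024 for imprinted, 0.71 for cell cycle, 1.86 for immediate early, 0.60 for cytosolic ribosomal, 1.08 for proteasome and 0.55 for mitochondrial ribosomal genes. Within Ttf+/+T43H alone the spermatid median was 5.98; within t12+/+T43 alone it was 2.66, with 0.94 for Leydig and -4.14 for peritubular genes.

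Uncalled genes that changed sign were Sycp1 (-0.45 by quantiles), Kit (0.082 by quantiles, 0.28 centred), Star (0.11, 0.38, and 0.74 within t12+/+T43) and Hspa2 (0.40 centred, 0.10 within t12+/+T43). Leaving out 1 array gave -0.36 to 0.047 for Hspa2 and -0.78 to 0.25 for Star. The cause was not tested.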

Other observations

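Several genes outside the lists were much higher in sorted cells; they were chosen after their values were seen. Herc2, a ubiquitin ligase, was at 7.88 to 8.94 against 3.45 to 3.59, Vps13b, a lipid transfer protein, was higher by 4.86 ± 0.13, and Usp7, a deubiquitinase, was at 8.61 to 10.22 against 3.06 to 3.25. Over whole classes, gene span in GRCm38.p6 differed little: the median was 23.9 kb for genes higher in sorted cells, 24.9 kb for those higher in testes and 23.3 kb over all tested genes with a span. Dmd, a very long X gene of muscle, went the other way, at -4.04 ± 0.21, and Fmr1, an X gene of translation control, rose by 2.00 ± 0.21. Gusb, a lysosomal enzyme often used as a reference gene, was at 2.54 to 2.64 in sorted cells and 7.26 to 8.10 in testes.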
